A study of Mus musculus with 23 samples.

Results

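The regions described here are the NR5A2-bound sites at 9 genes that specify the trophectoderm, Cdx2, Tead4, Gata2, Gata3, Eomes, Elf5, Tfap2a, Tfap2c and Id2. A region was assigned to a gene when that gene's span was the nearest protein-coding span in the RefSeq table and lay within 50 kb of the region's midpoint. Of 16958 bound regions in the deposited table, 16 met this rule. They belonged to 6 of the genes: Tfap2c had 5, Tead4, Gata3 and Tfap2a had 3 each, and Cdx2 and Id2 had 1 each. Gata2, Eomes and Elf5 had none. The limit of 50 kb excluded 3 further regions whose nearest gene was a member. The outermost region inside it lay 41.9 kb from Tfap2a, with 2.35 and 1.43 RPKM (the authors' depth-scaled read density) in the mz heterozygous and knockout columns, and the closest outside lay 59.7 kb from Tfap2c, with 0 and 1.08 RPKM.

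The trophectoderm is the outer epithelium of the blastocyst and the source of the placental lineages. In outer cells of the morula, low Hippo signalling lets the coactivator YAP enter the nucleus, where it works with the DNA-binding factor TEAD4 to switch on Cdx2 and Gata3. The AP-2 factors encoded by Tfap2a and Tfap2c act with this circuit, Id2 encodes a helix-loop-helix protein that marks early outer cells, and Eomes, Elf5 and Gata2 act in trophoblast stem cells and their descendants. The nuclear receptor NR5A2 contacts DNA as a monomer, at a single core motif with a short extension.

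ATAC-seq, an assay whose transposase cuts and tags open DNA, was run on mouse embryos at the 8-cell stage. In the maternal-zygotic (mz) series, 8 single embryos labelled mz_NrHet and 13 labelled mz_NrKO were assayed straight from the animal. Both groups share a single date. The labels do not say how the alleles were made or whether the heterozygotes had maternal Nr5a2, so the maternal and zygotic losses cannot be told apart. In the inducible series (iNrKO), embryos taken at the 2-cell stage 30 h after hCG were cultured for 45 h, and 1 pool (iNrKO_plus_Tam_NrKO) was given 4-hydroxytamoxifen at 750 nM during the initial 24 h and 1 pool (iNrKO_minus_Tam_Nrpp) was given none. How many embryos a pool held, and what drives the inducible deletion, are not given in the sources used here. With no treated pool that keeps the gene, the drug and the deletion cannot be told apart. The inducible pools carry a later date than the mz embryos, so the series also differ in date, culture and library format.

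The authors' table gives 1 merged RPKM value per group and region, with no value for single embryos, so the spread between embryos is unknown for every difference. Whole reads recovered from these values totalled 99826 and 109296 over all regions in the mz heterozygous and knockout columns, and 285671 and 190091 in the untreated and treated pools. Every interval and test below compares merged libraries, not conditions, and covers counting error only. The Nr5a2 gene span holds no bound region, so the deletion could not be checked here. The table holds no expression values, so the stage and tissue labels could not be checked against marker genes. Near 14 genes of cumulus and granulosa cells, which surround the oocyte, the table lists 8 regions at 4 genes, none of them called in either series (1 lower and none higher in the mz series at an unadjusted p under 0.05, none in the inducible series). Their part in the results was not tested.

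Start sites were taken from the RefSeq promoter table (GRCm38.p6, the assembly of mm10), whose windows run from 250 bases before to 50 after a start. Of the 6 genes with a bound region, Cdx2, Gata3, Tfap2a and Id2 have 5 windows in all, and none of the 5 overlapped a bound region. Tead4 and Tfap2c are not in this table. With 1.79% of all 32851 windows overlapping a region, so few windows show nothing particular to these genes. The NR5A2 sites CAAGGTCA and CAAGGCCA, searched on both strands, were found in 3.92% of all windows and in 0 of the 10 windows of the 7 listed members, which is likewise too few to compare and says nothing about weaker sites. The windows of Cdx2 (chr5:147307200-147307499, minus strand) and Id2 (chr12:25096043-25096342, minus strand) are printed 5′ to 3′, since Cdx2 has the single region called in the mz series and Id2 the most accessible region, and both regions lie outside these windows.
Cdx2: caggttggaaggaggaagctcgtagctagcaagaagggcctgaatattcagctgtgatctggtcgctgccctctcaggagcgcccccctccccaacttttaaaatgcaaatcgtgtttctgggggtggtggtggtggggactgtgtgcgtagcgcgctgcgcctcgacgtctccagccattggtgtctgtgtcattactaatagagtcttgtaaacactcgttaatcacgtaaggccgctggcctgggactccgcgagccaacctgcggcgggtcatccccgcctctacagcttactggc
Id2: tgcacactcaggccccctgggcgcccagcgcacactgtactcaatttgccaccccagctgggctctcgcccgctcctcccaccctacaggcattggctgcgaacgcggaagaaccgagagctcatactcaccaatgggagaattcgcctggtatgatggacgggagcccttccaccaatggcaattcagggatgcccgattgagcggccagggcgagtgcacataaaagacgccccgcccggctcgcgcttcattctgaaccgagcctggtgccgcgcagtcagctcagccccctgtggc

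Of the 16 bound regions, 3 lay inside a gene span (18.8%, against 50.9% of all regions) and 7 within 10 kb of one (43.8%, against 73.5%). The RefSeq gene table gives no exons, so exon and intron could not be assigned. The authors placed 10 of the 16 in their accessible class (62.5%, against 48.5%). For all 16 the CUT&RUN summit had been moved by the authors onto an Nr5a2 motif, by 1 to 240 bp, as for 89.3% of all regions. The NR5A2 CUT&RUN signal, an antibody-directed cleavage assay from an earlier study, had a median of 4.57 RPKM over the 16 regions against 4.15 RPKM over all, with 8 of 16 above the latter.

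**Figure D1:**
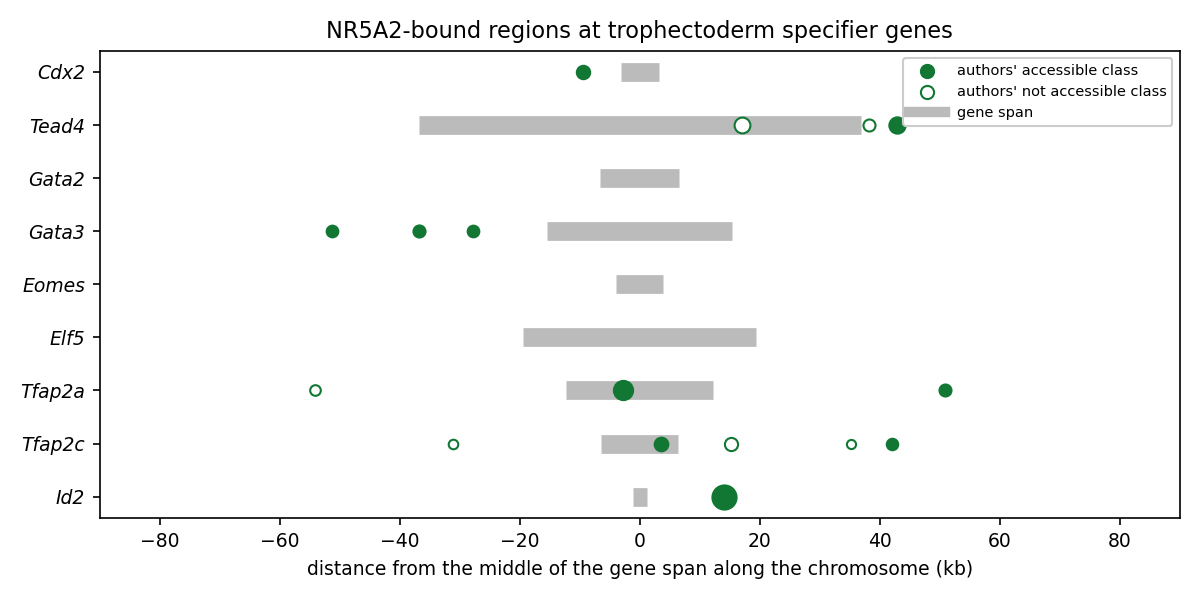
Positions of the 16 bound regions relative to the 9 genes. The x axis is distance in kb from the middle of each gene span along the chromosome, grey bars are gene spans, filled circles are regions of the authors' accessible class, open circles those of the not accessible class, and circle area grows with mean RPKM over the 4 columns. The rows of Gata2, Eomes and Elf5 hold no region, and 3 circles lie on a grey bar.

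ATAC-seq RPKM at these loci was lower in both kinds of knockout, by about as much as over all bound regions. Summed RPKM over the 16 regions had an mz ratio of knockout over heterozygous of 0.584 (exact 95% interval 0.456 to 0.747), against 0.668 over all regions and 0.650 over all accessible regions. Scaled so that the median region did not change, the mz ratio was 0.956 (0.747 to 1.22). The inducible ratio of treated over untreated was 0.626 (0.521 to 0.752), against 0.694 over all regions, and 0.922 (0.767 to 1.11) scaled in the same way. The median log2 ratio, on a log2(RPKM + 1) scale that understates changes of low regions, was −0.52 for mz embryos and −0.30 for the pools, against −0.32 and −0.35 over all regions. The knockout column was the lower one at 11 of 16 regions in the mz series (68.8%, against 64.3% of all regions) and at 13 of 16 in the inducible series (81.3%, against 74.4%). It was lower in both series at 9 regions (56.3%, against 50.5%). Over all accessible regions these shares were higher, at 74.8%, 81.4% and 62.6%, and the median log2 ratios were −0.49 and −0.42. With 1 merged library of whole embryos per group, fewer open cells, less opening per cell and a shift between the libraries cannot be told apart.

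Single regions were tested by a two-sided exact binomial test on their reads, and p-values were adjusted (Benjamini-Hochberg) over the whole table of 16958 regions. In the mz series 1 of the 16 regions was called lower, at Cdx2, where 1.73% of all regions were. None was called higher, where 0.0236% of all were. At an unadjusted p under 0.05, 4 were lower and 1 higher, against 2021 and 120 of all 16958 regions. In the inducible series 2 of the 16 were called lower, both at Tead4, where 6.37% of all regions were. None was called higher there, where 0.0767% of all were. At an unadjusted p under 0.05, 5 were lower and 1 higher, against 3335 and 149 of all 16958 regions. With 16 regions, 1 or 2 calls do not set these loci apart from that background. Scaling the columns so that the median region or the sum of all regions did not change ended all 3 calls (over all regions, 8 or 14 were then lower and 18 or 13 higher in the mz series, and 75 or 78 lower and 45 or 37 higher in the inducible series).

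Depth limited what could be called. A member region held a median of 6 reads in each mz column, from 1 to 40 in heterozygotes and from 0 to 29 in knockouts, and of 16 and 10 reads in the untreated and treated pools. Even with no knockout read at all, only 7 of the 16 regions could have passed the mz test (26.7% of all regions could), and 12 of 16 the inducible test (69.1%). The absence of a call does not show that a region kept its accessibility.

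**Figure D2:**
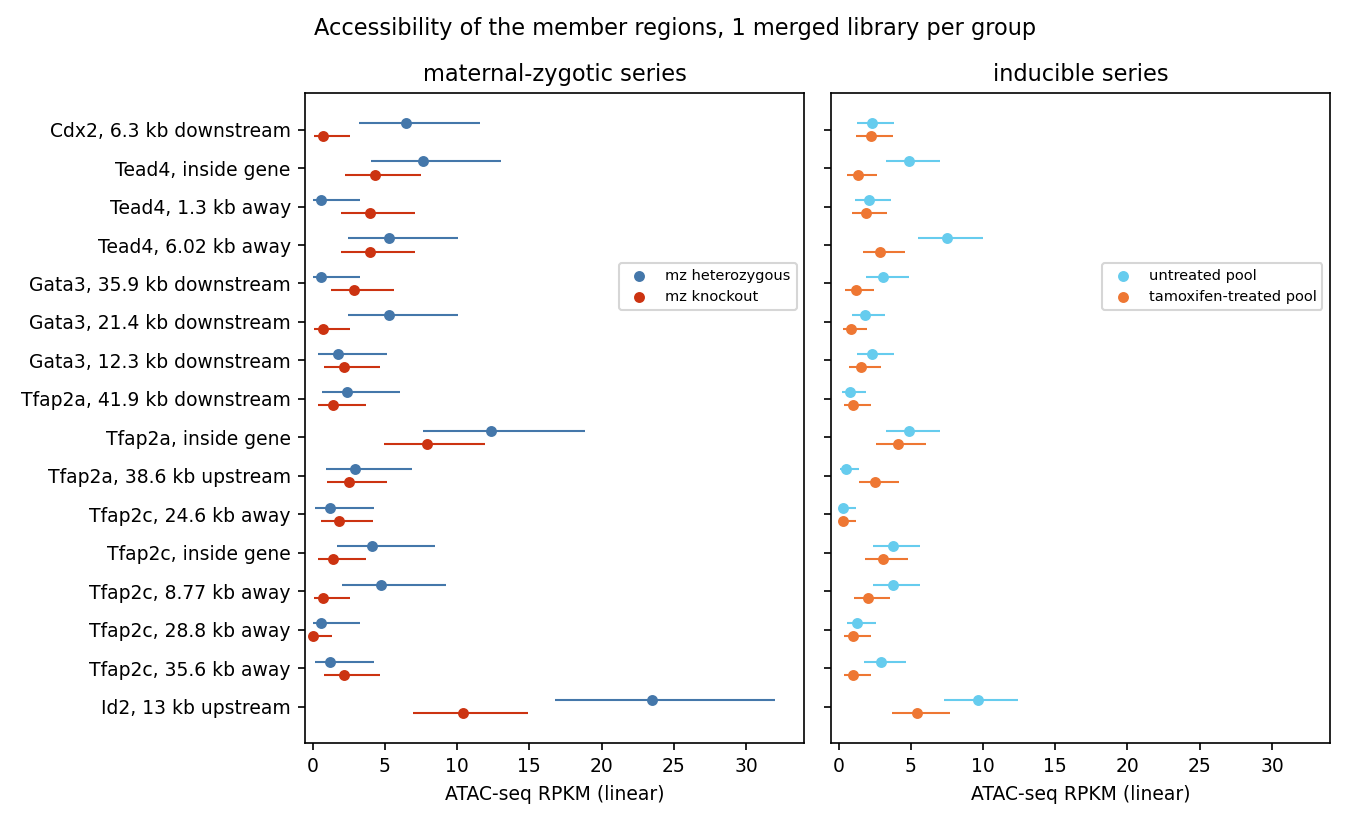
ATAC-seq RPKM (x axis, linear) of each of the 16 regions (rows) in the merged mz columns (left) and the inducible pools (right). Points are the deposited values and lines exact 95% Poisson intervals of the recovered reads. The Id2 region is the highest in every column, and the heterozygous and knockout intervals are apart at Id2 and Cdx2.

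Tead4, the gene of the TEAD factor that carries the YAP signal, had 3 regions, and 2 of them fell in the treated pool. The region inside the gene (chr6:128280737-128281225, not accessible class) had 7.64 RPKM in heterozygotes, 4.30 in mz knockouts, 4.90 in the untreated and 1.36 in the treated pool. The treated pool was the lowest of the 4 columns, with 8 reads against 30 in the untreated pool. Its inducible ratio was 0.278 (0.110 to 0.621, adjusted p = 0.0175, exact binomial test), and its mz ratio of 0.564 (0.235 to 1.34) did not pass.

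A second Tead4 region, 6.02 kb outside the gene span (chr6:128306595-128307063, accessible class), had 5.29 and 3.95 RPKM in the mz columns and 7.51 and 2.89 RPKM in the untreated and treated pools. The untreated pool was the highest column here, and the intervals of the 2 pools did not overlap. The inducible ratio was 0.385 (0.207 to 0.685, adjusted p = 0.0177, exact binomial test) and the mz ratio 0.746 (0.281 to 2.04). After scaling to the median or to the sum, the adjusted p was 0.283 or 0.280 for the region inside the gene and 0.421 or 0.363 for this one.

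The third Tead4 region, 1.30 kb outside the span on the same side (chr6:128302004-128302231), had the strongest NR5A2 CUT&RUN signal of the 16, 16.9 RPKM, above 99.3% of all regions, although the authors class it as not accessible. It held 0.587 RPKM in heterozygotes, 3.95 in mz knockouts, 2.12 in the untreated and 1.87 in the treated pool. The heterozygous column was the lowest, at 1 read against 11 in knockouts. The mz ratio was 6.72 with an interval from 0.976 to 289 and an adjusted p of 0.348 (exact binomial test). The 3 regions summed gave Tead4 an mz ratio of 0.903 (0.516 to 1.60) and an inducible ratio of 0.422 (0.278 to 0.628).

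Cdx2, the homeobox gene that TEAD4 and YAP activate in outer cells, had 1 region. It lay 6.30 kb past the 3′ end and 12.6 kb from the start site (chr5:147294232-147294973), was accessible, and was bound with 6.04 RPKM in CUT&RUN, above 74.2% of all regions. It held 6.46 RPKM in heterozygotes and 0.717 in mz knockouts, or 11 and 2 reads, and 2.29 and 2.21 RPKM, or 14 and 13 reads, in the untreated and treated pools. The heterozygous column was high, the mz knockout column low, and the 2 pools nearly alike between them. The mz ratio was 0.111 (0.0120 to 0.509, adjusted p = 0.0475, exact binomial test) and the inducible ratio 0.968 (0.419 to 2.22). Scaling to the median (adjusted p = 0.665) or to the sum (adjusted p = 0.450) ended the mz call.

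Gata3, a zinc-finger factor gene switched on beside Cdx2, had 3 accessible regions, all downstream of the gene. None passed in either series, and they differed among themselves in the mz columns. The region 21.4 kb away (chr2:9835469-9835907) had 5.29 RPKM in heterozygotes and 0.717 in mz knockouts, and 1.80 and 0.851 RPKM in the untreated and treated pools. It was lower in the knockout column of both series, with ratios of 0.136 (0.0143 to 0.655, adjusted p = 0.106, exact binomial test) and 0.474 (0.129 to 1.48). The region 35.9 kb away (chr2:9820773-9821618) had 0.587 and 2.87 RPKM in the mz columns and 3.10 and 1.19 RPKM in the pools. It was higher in the mz knockout on 8 reads against 1, and lower in the treated pool. The region 12.3 kb away (chr2:9844681-9844879) had between 1.53 and 2.29 RPKM in all 4 columns, on 3 to 14 reads. Its mz ratio of 1.22 (0.261 to 7.55) and inducible ratio of 0.670 (0.256 to 1.66) had wide intervals, so it is not shown to be unchanged. Summed, Gata3 had an mz ratio of 0.751 (0.339 to 1.70) and an inducible ratio of 0.498 (0.281 to 0.855).

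The AP-2 genes carried 8 of the 16 regions. Inside Tfap2a, which encodes AP-2 alpha, a region 10.5 kb from the nearest listed start site (chr13:40723123-40723386) had 12.3 RPKM in heterozygotes, 7.89 in mz knockouts, 4.90 in the untreated and 4.08 in the treated pool. It was the second most accessible of the 16 by its mean over the 4 columns, above 95.6% of all regions, and its ratios of 0.640 (0.336 to 1.22) and 0.834 (0.467 to 1.48) did not pass. The Tfap2a region 38.6 kb upstream (chr13:40776704-40777029) went the other way in the pools, with 0.490 RPKM or 3 reads untreated and 2.55 RPKM or 15 reads treated, while the mz columns held 2.94 and 2.51 RPKM. Its inducible ratio was 5.21 (1.47 to 28.1, adjusted p = 0.0562, exact binomial test), and the log2 value of 1.25 lay above that of 99.9% of all regions. This region passed as higher after scaling to the median (adjusted p = 0.0443) or to the sum (adjusted p = 0.0473). Its CUT&RUN signal, 1.28 RPKM, was the weakest of the 16. The region 41.9 kb downstream held 0.816 to 2.35 RPKM. With all 3, Tfap2a was the one gene of the 6 whose summed inducible ratio was above 1, at 1.23 (0.784 to 1.95), against 0.672 (0.397 to 1.14) in the mz series. Within 10 kb, where only the region inside the gene remains, the inducible ratio was 0.834.

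Tfap2c, which encodes AP-2 gamma, a factor of trophoblast and germ cells, had 5 regions and no call. The region inside the gene (chr2:172555333-172555922) had 4.11 and 1.43 RPKM in the mz columns and 3.75 and 3.06 RPKM in the pools. The region 8.77 kb away (chr2:172567201-172567585, not accessible class) had 4.70 and 0.717 RPKM in the mz columns and 3.75 and 2.04 RPKM in the pools. Both were lower in each knockout column, with mz ratios of 0.349 (0.0749 to 1.37) and 0.153 (0.0158 to 0.765, adjusted p = 0.154, exact binomial test). The region 35.6 kb away (chr2:172594010-172594511) had 1.17 and 2.15 RPKM in the mz columns and 2.94 and 1.02 RPKM in the pools, so that its columns moved in opposite directions. The mz rise rests on 2 and 6 reads, and the interval of its ratio (1.83, 0.328 to 18.6) includes a fall. The pools held 18 and 6 reads, with a ratio of 0.348 (0.113 to 0.914). The regions 24.6 and 28.8 kb away were among the least accessible, at 0.326 to 1.79 and 0 to 1.31 RPKM. In the latter the mz knockout column held 0 reads, for which the limit of 3 counts is 1.08 RPKM (the two-sided Poisson bound drawn in the plot is 3.69 reads). Summed ratios for Tfap2c were 0.519 (0.255 to 1.04) for mz embryos and 0.620 (0.417 to 0.912) for the pools. The mz ratio was 0.244 (0.0776 to 0.666) both within 10 kb and with at least 10 reads per region. Both settings kept only the regions inside the gene and 8.77 kb away, and dropped those higher in the mz knockout column.

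Id2, an inhibitor of DNA binding by helix-loop-helix factors, had the most accessible region of the 16, 13 kb upstream of the gene (chr12:25108925-25109183). It held 23.5 RPKM in heterozygotes and 10.4 in mz knockouts, or 40 and 29 reads, and 9.63 RPKM in the untreated and 5.45 in the treated pool, or 59 and 32 reads. Its mean over the 4 columns exceeded that of 99.2% of all regions, while its CUT&RUN signal of 2.41 RPKM was above that of only 18.4%. The knockout column was the lower one in both series. The ratios were 0.443 (0.265 to 0.732) and 0.565 (0.356 to 0.884), but neither passed over all regions (adjusted p = 0.0544 and 0.0886, exact binomial tests). The mz test passed when only the 7445 regions with at least 10 reads were tested (adjusted p = 0.0250).

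**Figure D3:**
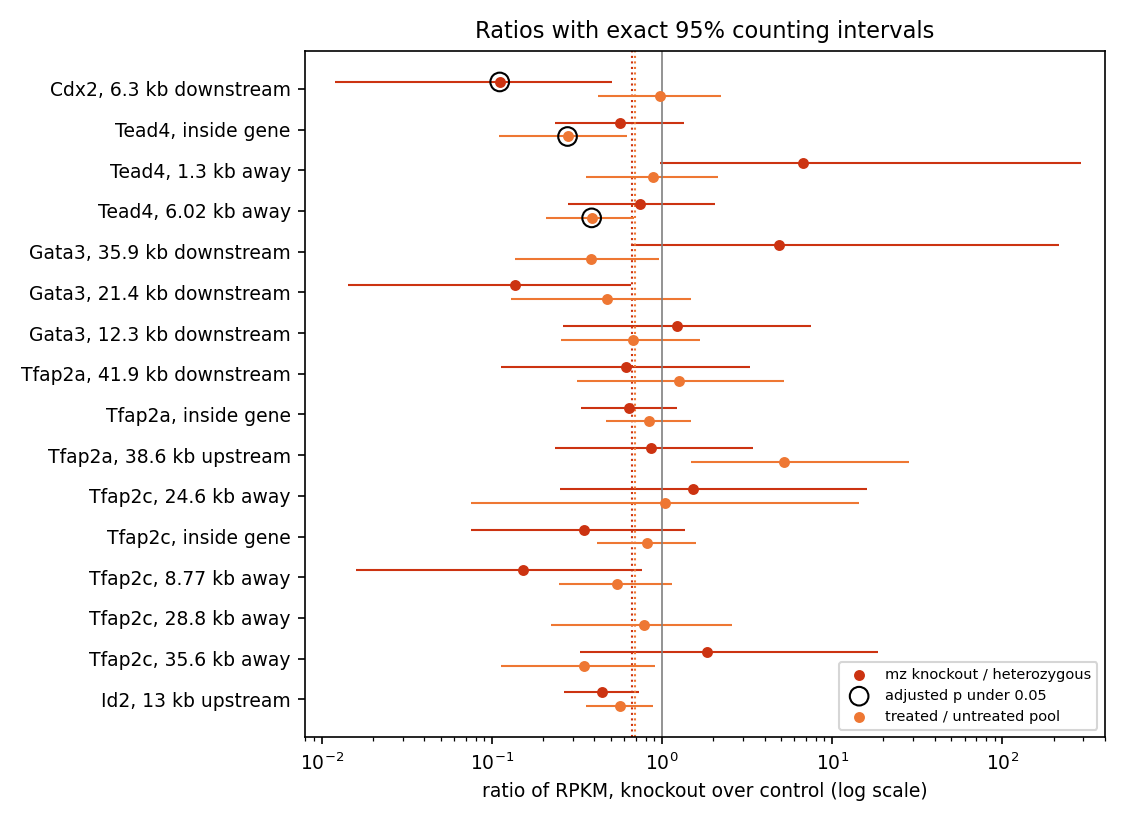
Ratio of knockout over control RPKM (x axis, log scale) for each of the 16 regions in the mz (red) and inducible (orange) series, with exact 95% counting intervals. Dotted lines mark the ratios over all regions, 0.668 and 0.694, black rings mark the 3 called regions, and the mz ratio of the Tfap2c region 28.8 kb away, with 0 knockout reads, is not drawn.

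Gata2, Eomes and Elf5, which act later in trophoblast, had no bound region within 50 kb, whatever gene was nearest. The closest bound regions lay 121 kb from Gata2 (nearest gene Rpn1), 111 kb from Eomes (nearest gene Itga9) and 212 kb from Elf5 (nearest gene Ehf). They are not members and were not tested as such.

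The 2 series did not pick out the same member regions. The calls were at Cdx2 in the mz series and at Tead4 in the inducible series, but a call in one series and not in the other does not show a difference. By an exact conditional test of the 2 ratios, adjusted over all regions, 0 of the 16 differed between the series, where 0.0177% of all regions did. At an unadjusted p under 0.05 there were 2, Cdx2 (p = 0.00747, adjusted p = 0.991, exact conditional test) and the Gata3 region 35.9 kb away (p = 0.0188, adjusted p = 1, exact conditional test). At that unadjusted threshold, 747 of all 16958 regions differed. The columns moved in opposite directions in the 2 series at 6 of the 16 regions (37.5%, against 35.5% of all).

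**Figure D4:**
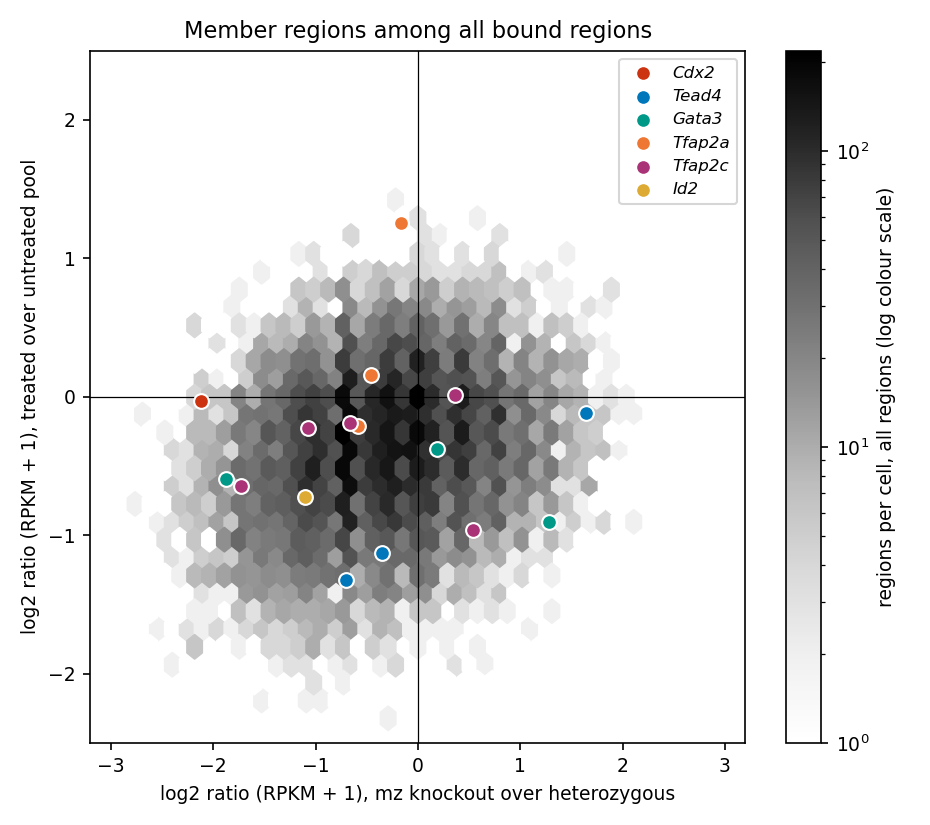
log2 ratio on the log2(RPKM + 1) scale in the mz series (x axis) against the inducible series (y axis). Grey cells count all 16958 regions on a log colour scale and coloured points are the 16 regions by gene. The Cdx2 point lies at −2.12 and −0.03, the 2 called Tead4 points at −0.70 and −1.32 and at −0.35 and −1.13, and the Tfap2a point at the top at −0.17 and 1.25.

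In the authors' deposited table, whose class of change is set by the mean of both ratios, 8 of the 16 regions are classed as losing accessibility (41.5% of all regions are) and 3 as gaining it (16.9% of all). The losing regions are those at Cdx2, Id2, 2 at Tead4, 1 at Gata3 and 3 at Tfap2c. The gaining ones are the Tead4 region at 1.30 kb, the Gata3 region at 35.9 kb and the Tfap2a region at 38.6 kb, each of which held 1 to 3 reads in the control column of the series that moved it. The deposited ratio was under 0.667 at 9 of the 16 in the mz series (49.2% of all) and at 7 in the inducible series (48.6%).

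Other genes of the lineage were described with fixed lists. Of 30 trophectoderm effector and marker genes (keratins, junction and transport genes, receptors and lineage markers), 16 had a region, with 51 regions in all. Of these 2 were lower in the mz series (1.73% of all regions were) and 3 in the inducible series (6.37% of all), and none was higher. At an unadjusted p under 0.05, 11 and 12 were lower and 1 and 2 higher. Of all 16958 regions, 2021 and 3335 were lower and 120 and 149 higher at that threshold. The median log2 ratios were −0.70 and −0.49, against −0.32 and −0.35 over all regions. Over all accessible regions they were −0.49 and −0.42, and 54.9% of the list's regions were in that class, against 48.5% of all. An mz call lay 33.6 kb from Klf5, a Krüppel-like factor gene of trophectoderm and inner cells (14.7 and 3.59 RPKM, adjusted p = 0.0135, exact binomial test). The other mz call lay inside Ptges, a prostaglandin E synthase gene (5.87 and 0.359 RPKM, 10 and 1 reads, adjusted p = 0.0346, exact binomial test). The pools went the other way at this Ptges region, with 0.979 RPKM untreated and 2.72 treated (6 and 16 reads). At the Klf5 region the treated pool was the lower one (5.22 RPKM untreated and 3.91 treated). The inducible calls were 0.787 kb from Cldn4, a tight junction claudin gene (8.00 and 1.53 RPKM untreated and treated, adjusted p = 0.000143, exact binomial test), at another region inside Ptges (4.24 and 1.36 RPKM, adjusted p = 0.0488, exact binomial test), and 15.4 kb from Hand1, a trophoblast giant cell factor gene (5.06 and 1.53 RPKM, adjusted p = 0.0215, exact binomial test).

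Of 25 genes that feed into the members (Hippo, Notch and BMP components and Klf4), 18 had a region, with 59 regions in all. In the mz series 0 were called (1.73% of all regions were lower), and the median log2 ratio was −0.41. At an unadjusted p under 0.05, 7 were lower and 1 higher, against 2021 and 120 of all 16958 regions. In the inducible series 4 were lower (6.37% of all regions were) and none was higher, and the median was −0.38. At an unadjusted p under 0.05, 15 were lower and 1 higher, against 3335 and 149 of all 16958 regions. The 4 were a pair inside Notch1 and a pair 49.5 and 1.31 kb from Klf4, a pluripotency factor gene. Those inside Notch1, the receptor whose signal adds to Cdx2 activation, had 5.39 and 7.02 RPKM untreated and 1.36 and 1.70 RPKM treated. In the mz series the first of them was higher in knockouts, at 5.29 RPKM in heterozygotes and 6.10 in knockouts. The second was lower, at 3.52 and 1.79 RPKM. Those assigned to Klf4 had 3.75 RPKM each untreated and, in the same order, 0.340 and 0.510 RPKM treated. Their mz columns held 3.52 and 5.29 RPKM in heterozygotes and 0.359 RPKM each in knockouts. The adjusted p-values of these 4 ranged from 0.00107 to 0.00719 (exact binomial tests). Scaled results are not given here for the genes of either list.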

How the data were processed

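ATAC-seq of 23 libraries was analysed from the authors' single deposited table. Cutadapt, Bowtie2, MACS2 and mm10 are named per the submitters' processing notes. Roles, settings, duplicate removal, transposase shift and the merging of embryos are not given in the sources used here, and retained duplicates would make the intervals too narrow. The table gives ATAC-seq and CUT&RUN coverage as RPKM computed by the authors, per the file headers, and the authors' deposited ratio per series, which equalled (knockout + 0.01)/(control + 0.01) within 5.0e-08. Each ATAC RPKM column was a whole multiple of 1 step (0.587, 0.359, 0.163 and 0.170 RPKM per read, heterozygous, mz knockout, untreated and treated) for 100% of values within 0.0001 of a step, whatever the region length. Reads were recovered by division, and neighbouring regions could share reads if wide windows were counted.

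Groups came from the titles. Regions were assigned to genes with RefSeq GRCm38.p6. Reads were compared by exact binomial tests that take the steps as known, p-values were adjusted (Benjamini-Hochberg, threshold 0.05) over the whole table, and ratios have exact (Clopper-Pearson, conditional) 95% intervals (Python 3.11.15, scipy 1.17.1). The tests were tested on simulated data at these depths, where no simulated loss was recovered in the mz comparison and only a minority in the inducible one. Simulated 4-fold gains were recovered more often. Most simulated regions were left unchanged, unlike these data, so this recovery does not measure what the tests could find here. Members, lists and tests were chosen with earlier results of these data known. Named were every member, each called region, the most accessible and most strongly bound region of each member, and regions inside a gene or within 1 kb of its end. For likeness, genes with at least 5 regions were compared. Alternatives covered scaling, pseudocount, distance, assignment and a minimum of 10 reads.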

Additional observations from a re-analysis of the deposited data

How the results depend on the processing

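No paired analysis was possible because the table carries merged columns without embryo numbers, and for the same reason no embryo could be left out in turn. The summed ratio over the 16 regions moved from 0.584 to 0.956 after scaling to the median and 0.873 after scaling to the sum in the mz series, and from 0.626 to 0.922 and 0.903 in the inducible series. Both scalings set the shared shift over all bound regions to none by construction. Under them the count of lower regions went from 1 to 0 (mz) and from 2 to 0 (inducible), and the inducible count of higher regions from 0 to 1, the upstream Tfap2a region, which also passed with at least 10 reads (adjusted p = 0.0481, exact binomial test; count 1). With at least 10 reads the mz count of lower regions was 2, Cdx2 and Id2, since 7445 regions entered the adjustment, of which 439 were lower. Over all regions the scaled counts were 8 or 14 lower and 18 or 13 higher (mz; 293 and 4 unscaled), and 75 or 78 lower and 45 or 37 higher (inducible; 1081 and 13 unscaled), and with at least 10 reads 6 were higher in the mz and 15 in the inducible comparison. The summed ratios stayed within their unscaled intervals with a limit of 10 kb (0.558 and 0.600), distance from the region edge, any nearest gene, accessible regions only (0.548 and 0.642), medians of region ratios (0.626 and 0.728) and each gene left out (mz 0.519 to 0.642, inducible 0.544 to 0.706). The mz ratio of Gata3 became 0.136 with at least 10 reads (both columns together). This kept only its region 21.4 kb away, on 9 heterozygous and 2 knockout reads, and dropped those higher in the mz knockout column. The mz ratio of Tfap2c became 0.244 within 10 kb or with at least 10 reads. Both settings kept the same Tfap2c regions, inside the gene and 8.77 kb away, so they are not separate checks. These lower ratios follow from which regions were kept. Gene left out and any nearest gene were chosen after seeing the data. Scaling changed the sign of 15 of the 64 scaled log2 values of single regions, none of them for a call.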

Other observations

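Regions near a member but with another nearest gene were left out by the assignment rule. Next to Tead4, a region 11.1 kb away and 9.24 kb from Tulp3, a gene of a tubby-like protein, had 4.11 and 2.15 RPKM in the mz columns and 5.22 RPKM untreated and 1.53 RPKM treated, and passed the inducible test (adjusted p = 0.0170, exact binomial test). With it, 3 of the 4 regions within 50 kb of Tead4 were called lower in the treated pool, where 6.37% of all regions were. This tally was made after the calls were seen, so it is a description and no test of the locus. The calls of the 2 member regions among them ended after scaling to the median or to the sum. For the region nearest to Tulp3 no scaled result is given here. Next to Id2, a region 19.9 kb away whose nearest gene is Kidins220 had 13.5 and 5.74 RPKM in the mz columns and 5.88 and 6.47 RPKM in the pools, and another 33.6 kb away had 3.52 and 3.23, and 2.45 and 1.02 RPKM. Neither passed in either series.

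Among 479 other genes with at least 5 regions within 50 kb, those nearest to Tfap2c in the plane of log2 mz and log2 inducible summed ratios were Cul2 (0.523 and 0.629), Timd2 (0.509 and 0.638) and Ankrd6 (0.503 and 0.630), at distances of 0.025, 0.051 and 0.051 log2 units over 2 ratios, against 0.519 and 0.620 for Tfap2c. The mz ratio of Tfap2c rests on 20 and 17 reads, with an interval of 0.255 to 1.04. These distances are far smaller than that counting error, so the choice and order of the nearest genes carry no weight.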
